A study of Mus musculus with 36 samples.

Results

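The antioxidant and xenobiotic enzymes described here are the genes whose array symbol belongs to 15 families. Genes entered by symbol alone, but the families were chosen with earlier results of these data known. The families are the transcription factor Nfe2l2, the superoxide dismutases and catalase, the glutathione peroxidases (Gpx), the peroxiredoxins (Prdx), the thioredoxin system (Txn), the enzymes of glutathione synthesis (Gclc and Gclm), the glutathione S-transferases (Gst), the quinone reductase Nqo1, the cytochromes P450 (Cyp), the epoxide hydrolases (Ephx), the flavin monooxygenases (Fmo), the aldehyde dehydrogenases (Aldh), the aldo-keto reductases (Akr), and the transferases of glucuronic acid (Ugt) and sulphate (Sult). By this rule 53 of the 6971 genes with a single symbol on the array were members, measured by 65 spots. The members were 1 Nfe2l2, 2 of the dismutases and catalase, 4 glutathione peroxidases, 4 peroxiredoxins, 10 thioredoxin genes, 1 gene of glutathione synthesis, 10 glutathione S-transferases, 7 cytochromes P450, 1 epoxide hydrolase, 8 aldehyde dehydrogenases and 5 aldo-keto reductases. Sod2, Sod3, Nqo1, Gclm and the Fmo, Ugt and Sult families were not analysed here. A shared symbol is no proof of a shared task: Txnip binds thioredoxin and has no reductase activity, and Txnl4a is a component of the spliceosome.

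Whole lungs of BALB/c mice held at 0.5 atm were compared with lungs of control mice of the same time point on spotted cDNA arrays that carry both RNA samples on 1 slide, in different dyes. The hypoxia groups had 1, 3, 7, 14 or 21 days at low pressure, and the recovery groups had 21 days at low pressure followed by 1, 3, 7 or 14 days at sea level, called days 22, 24, 28 and 35 here. There were 9 time points with 4 arrays apiece, 36 altogether. RNA of 5 mice was pooled before labelling, so the spread between single mice was not measured. All groups are of 1 strain, and the labels give no genotype, sex or age. Every value is the log2 ratio of hypoxic over control lung. A positive value is likely, rather than certain, to mean higher in hypoxic lung, because that direction rests on the order in which the samples and dyes are named, and no label records a dye swap. Were the direction turned, every higher below would read lower and every lowest would read highest.

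Between 14186 and 15042 of the 15388 spots had a value on an array, and precision is limited by how few arrays there are. The SD over all spots of an array ranged from 0.17 to 0.52, the widest being replicate 1 of day 28. The median Pearson r was 0.73 between replicate 1 and replicate 2, or replicate 3 and replicate 4, of the same day (18 pairs of arrays), against 0.39 for the 36 other pairs of a day, over genes, which are not independent. Of all 630 pairs of arrays 3 had an r under -0.3 (lowest -0.32), each between a hypoxia day and day 22, and the lowest within a day was -0.25. For day 28, values without its replicate 1 are given beside the calls named. In whole lung, fewer cells of a type and less RNA per cell cannot be told apart. The arrays give ratios of spots and no level per gene length, so the lung label could not be checked by the level of its markers, and no member's level is set against another's.

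Nfe2l2 encodes NRF2, the transcription factor that KEAP1 keeps at a low level until oxidants or electrophiles modify KEAP1. Freed NRF2 binds antioxidant response elements and drives many genes of glutathione and thioredoxin metabolism and of drug conjugation. Superoxide dismutases turn superoxide into hydrogen peroxide, which catalase, glutathione peroxidases and peroxiredoxins remove. Cytochromes P450 oxidise foreign compounds and sterols, and epoxide hydrolases, glutathione S-transferases, aldehyde dehydrogenases and aldo-keto reductases deal with the reactive products. In the lung, club cells of the airway epithelium, alveolar type II cells and macrophages are known for high levels of several of these enzymes.

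Lower ratios over both phases were seen for Nfe2l2, catalase, Gstm genes and Aldh1a1, Aldh1b1 and Aldh3a2, while Aldh7a1, Aldh16a1, Aldh9a1 and Akr1a1 were among those higher over hypoxia. Of the 53 members, 50 were measured on 2 or more arrays of every day and entered the fit of the phases. In this fit the day means were the replicates (5 hypoxia, 4 recovery), tested with limma. The Benjamini-Hochberg adjustment ran over 12159 features, that is genes and spots without a single symbol, with a threshold of 0.05. Over the hypoxia phase 24 of 50 members passed, 48%, against 42.4% of all features tested. Of these, 7 were higher (14%, against 24.7% of all features) and 17 were lower (34%, against 17.7%). The median log2 ratio of the 50 was -0.04, against 0.03 over all features, and 31 of the 50 lay below 0. Over recovery 9 passed, 18% against 4.77% of all features. All 9 were lower (18% against 3.12%), and none was higher by limma, against 1.65% of all features, with 4 members higher at an unadjusted p under 0.05. The recovery count of 9 fell to 0 when day 3, 22, 24 or 28 was left out of the fit, where at most 0.107% of all features passed. Only 2 of the 9 passed both in replicates 1 and 2 alone and in replicates 3 and 4 alone. No adjusted p was read over the members alone.

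**Figure D1:**
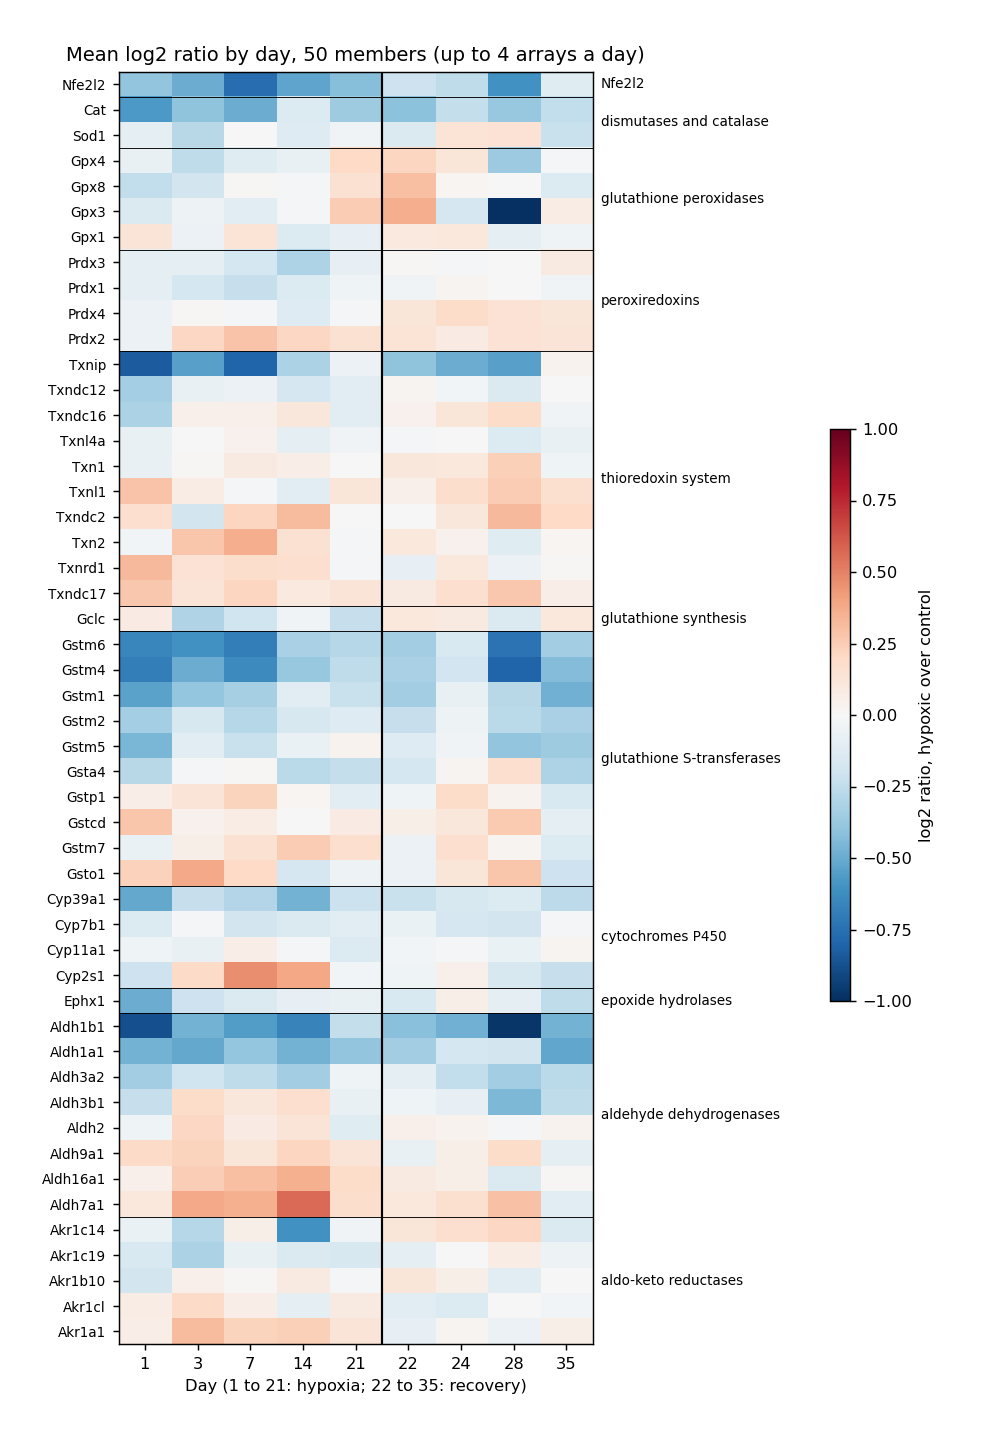
Mean log2 ratio of hypoxic over control lung for each of the 50 fitted members (rows, by family) at each of 9 days (columns), with blue below 0 and red above; colours end at -1 and 1. Nfe2l2, Cat, Txnip, Gstm6, Gstm4, Gstm1, Gstm2, Aldh1b1 and Aldh1a1 are blue across most days, and Gpx3 reached -1.18 at day 28 alone.

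By single day, tested on the arrays with at least 3 of 4 values, members passed 96 times in 462 tests, 20.8% against 16.7% of all features. Of these calls 23 were higher and 73 lower. The labels leave unsaid whether the arrays of a day stem from different mice, so these p-values reflect array-to-array spread alone, possibly technical. They also treat the 4 arrays as independent, although replicates 1 and 2, and replicates 3 and 4, were more alike (median r 0.73 against 0.39). At day 1, 19 of 51 members passed (background 19.6%), 3 higher (10.6%) and 16 lower (9.04%). At day 3, 17 of 51 passed (23.3%), 4 higher (13.3%) and 13 lower (9.96%). At day 7, 18 of 51 passed (35.8%), 5 higher (20.4%) and 13 lower (15.4%). The background in these brackets is the share of all features tested that passed that day in that direction. At each of these days the share of members lower was above the background (31.4%, 25.5% and 25.5%) and the share higher was below it (5.88%, 7.84% and 9.8%).

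At day 14, 14 of 52 members passed (27.7%), 5 higher (15.5%) and 9 lower (12.2%). Fewer passed at the end of hypoxia and soon after it. At day 21, 2 of 51 passed (4.52%), both lower (2.3%) and none higher (2.22%), by limma, with none higher at an unadjusted p under 0.05 either. At day 22, 0 of 51 passed (1.56%), neither higher (0.805%) nor lower (0.756%), by limma, although 12 had an unadjusted p under 0.05. The lowest adjusted p of day 22 was 0.0595, for Cat. At day 24, 1 of 51 passed (2.87%), lower (2.12%), and none higher (0.754%) by limma, where 2 were higher at an unadjusted p under 0.05. At day 28, 20 of 52 passed (32.1%), 6 higher (18.6%) and 14 lower (13.5%). Day 28 leaned on its replicate 1: without it 9 of 50 were lower and 0 higher by limma, against 8.19% and 10.1% of all features. At day 35, 5 of 52 passed (3.16%), all lower (1.36%), and none higher (1.81%) by limma, with 1 higher at an unadjusted p under 0.05. 

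Over the 9 days 25 of the 52 members tested on any day were lower on at least 1 day, 48.1% against 26.1% of all features so tested. Higher on at least 1 day were 12, 23.1% against 33.3%, and 0 were both, against 3.3%. On no day passed 15, 28.8% against 43.9%, while 11 were lower on at least 4 days, 21.2% against 6.49%. Of the 96 single-day calls, 37 were kept whichever replicate was left out of every day. The other 59 were lost in at least 1 of these 4 fits. Among them, Txnip at days 14 and 24 and Aldh1b1 at day 35 were lost in all 4. The same tally over all features is not given here.

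Nfe2l2, the master regulator of the group, was lower than control on all 20 hypoxia arrays and on all 16 recovery arrays. Over hypoxia its arrays ran from -0.91 to -0.11 with a median of -0.50, and the mean of the 5 days was -0.52 ± 0.15 (SD, n = 5), 0.697 of the control level (SE 0.0691 on the log2 scale, limma adjusted p = 0.000313). Over recovery its arrays ran from -1.09 to -0.04 with a median of -0.24, and the mean of the 4 days was -0.30 ± 0.22 (SD, n = 4), 0.814 of control (limma adjusted p = 0.0492). Its 2 spots differed in size: -0.78 over hypoxia on 1 and -0.30 on the other.

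The replicate arrays show the course of Nfe2l2. Nfe2l2 read -0.36, -0.34, -0.40 and -0.49 on day 1, -0.57, -0.11, -0.79 and -0.50 on day 3, and -0.85, -0.83, -0.48 and -0.91 on day 7. The day 7 arrays were the lowest of the hypoxia days apart from replicate 3. Nfe2l2 then stood at -0.16, -0.64, -0.59 and -0.72 on day 14, -0.32, -0.31, -0.50 and -0.57 on day 21, and -0.12, -0.04, -0.28 and -0.38 on day 22. Later in recovery Nfe2l2 read -0.37, -0.30, -0.18 and -0.17 on day 24, -1.09, -0.51, -0.37 and -0.46 on day 28, and -0.11, -0.06, -0.10 and -0.20 on day 35. Day 7 had a mean of -0.77 ± 0.20 (limma adjusted p = 2.5e-07, n = 4), and all 5 hypoxia days passed. Day 21 did not pass without replicate 3 (-0.40) or 4 (-0.37) of every day, nor did day 1 without replicate 4. Of the recovery days Nfe2l2 passed only at day 28 by limma (-0.61 ± 0.33, and -0.45 without replicate 1, which also passed), and at day 35 its mean was -0.12 ± 0.06.

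NRF2 itself binds antioxidant response elements, so the promoters of Nfe2l2 and of 2 Gstm genes are shown as RefSeq gives them on GRCm38.p6, from 250 bases before the start to 50 after it, 5′ to 3′ in the direction of the gene. Capitals mark a match to the core of the antioxidant response element, TGACNNNGC, searched on both strands. The Nfe2l2 window (chr2:75704614-75704913, minus strand) holds a match 240 bases before the start, and the Gstm1 window (chr3:108017924-108018223, minus strand) holds none. The Gstm5 window (chr3:107895604-107895903, plus strand) holds a match 42 bases before the start. Gstm5 passed over neither phase, and Gstm1, Gstm2, Gstm4, Gstm6 and Gstm7 hold no match in their first window. The Gstm1 window shown is the first of 2.
Nfe2l2: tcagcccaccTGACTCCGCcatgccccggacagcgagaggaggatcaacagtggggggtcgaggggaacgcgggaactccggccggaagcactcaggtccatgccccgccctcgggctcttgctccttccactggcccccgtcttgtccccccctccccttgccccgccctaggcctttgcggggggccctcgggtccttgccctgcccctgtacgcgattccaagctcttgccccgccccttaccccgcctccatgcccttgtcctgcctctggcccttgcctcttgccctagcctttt
Gstm1: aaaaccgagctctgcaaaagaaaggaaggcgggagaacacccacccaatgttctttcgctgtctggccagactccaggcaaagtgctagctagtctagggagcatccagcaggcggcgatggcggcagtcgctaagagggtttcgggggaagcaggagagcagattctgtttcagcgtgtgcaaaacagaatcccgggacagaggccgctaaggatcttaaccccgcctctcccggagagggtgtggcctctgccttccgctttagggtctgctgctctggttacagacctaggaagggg
Gstm5: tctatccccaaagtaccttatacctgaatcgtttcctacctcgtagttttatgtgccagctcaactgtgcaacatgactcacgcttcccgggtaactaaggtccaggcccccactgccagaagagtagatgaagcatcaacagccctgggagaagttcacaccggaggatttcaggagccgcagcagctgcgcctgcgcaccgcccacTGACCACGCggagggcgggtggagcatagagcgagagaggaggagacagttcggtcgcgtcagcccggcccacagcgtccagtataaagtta
Windows were found for 43 of the 53 members. The core was in the first window of 7 of these, 16.3%, against 12.5% of 27025 genes, and the 7 were Akr1c19, Akr1cl, Aldh9a1, Gstm5, Nfe2l2, Prdx1 and Sod1. Among members with a window that passed over hypoxia, 3 of 15 lower and 1 of 6 higher held it. The core of the xenobiotic response element, GCGTG, which the aryl hydrocarbon receptor binds, was in 18 of 43 member windows, 41.9%, against 32.5% of all genes, among them 4 of the 15 lower and 4 of the 6 higher. A match is a run of letters and no measured site.

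Catalase, the peroxisomal enzyme that breaks down hydrogen peroxide, was below control on all 36 arrays. Cat ran from -1.12 to -0.04 over the 20 hypoxia arrays (median -0.34), with a mean of -0.39 ± 0.17 (SD, n = 5 days), 0.762 of control (SE 0.0576, limma adjusted p = 0.000502). Over recovery it ran from -0.63 to -0.06 (median -0.31), with a mean of -0.32 ± 0.09 (SD, n = 4 days), 0.802 of control (limma adjusted p = 0.0375). Cat read -0.45, -0.32, -0.72 and -0.82 on day 1, -0.26, -0.20, -0.60 and -0.54 on day 3, and -0.53, -0.66, -0.44 and -0.36 on day 7. These 3 days passed. Cat then stood at -0.11, -0.16, -0.06 and -0.21 on day 14, -0.08, -0.04, -0.18 and -1.12 on day 21, and -0.54, -0.37, -0.32 and -0.41 on day 22. The day 21 mean of -0.35 was set by replicate 4, the other 3 arrays lying between -0.18 and -0.04, and day 21 did not pass. Later in recovery Cat read -0.16, -0.48, -0.16 and -0.16 on day 24, -0.06, -0.63, -0.31 and -0.54 on day 28, and -0.17, -0.29, -0.17 and -0.34 on day 35. Among these days only day 28 passed (-0.38 ± 0.26, and -0.49 without replicate 1, which also passed). The day 28 call of Cat was lost without replicate 2 of every day, and its day 3 call without replicate 3.

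Sod1, the cytosolic superoxide dismutase, had a mean of -0.11 ± 0.11 over hypoxia (limma adjusted p = 0.171) and was below 0 on 15 of 20 arrays. It passed at day 3, at -0.20, -0.16, -0.50 and -0.26 on the 4 arrays, a mean of -0.28 ± 0.15. Over recovery its mean was -0.02 ± 0.19.

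None of the 4 glutathione peroxidases, which reduce peroxides with glutathione, passed over either phase by limma. Of all features 42.4% passed over hypoxia and 4.77% over recovery. The hypoxia means of the 4 lay between -0.06 for Gpx4, which reduces lipid hydroperoxides in membranes, and -0.00 for Gpx1, the abundant cytosolic enzyme. The mean of Gpx1 hides a split between the replicate pairs: it was 0.31 in replicates 1 and 2 and -0.31 in replicates 3 and 4, and passed in each, in opposite directions. At day 14, for example, Gpx1 read 0.34, 0.24, -0.41 and -0.73 in replicates 1 to 4. Gpx3, the secreted plasma enzyme, was the lowest member at day 28, at -2.16, -0.79, -0.70 and -1.06, a mean of -1.18 ± 0.67 (limma adjusted p = 4.44e-07). Without replicate 1 the day 28 mean of Gpx3 was -0.85 and still passed. On the other 8 days it lay between -0.17 and 0.36 and did not pass. Gpx4 passed at day 28 at -0.36 ± 0.60, but its arrays read -1.24, 0.10, -0.20 and -0.12, and without replicate 1 the mean was -0.07 and did not pass. Gpx8, an enzyme of the endoplasmic reticulum, had a mean of -0.06 ± 0.16 over hypoxia, 0.18 in replicates 1 and 2 and -0.26 in replicates 3 and 4, where it passed, and it passed on no day.

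The peroxiredoxins, thiol enzymes that reduce peroxides, went both ways. Prdx3, the mitochondrial member, was lower over hypoxia, with arrays from -0.47 to 0.20 (median -0.20) and a mean of -0.15 ± 0.10 (n = 5 days), 0.899 of control (limma adjusted p = 0.0117). Prdx1, a cytosolic member, was lower too, with arrays from -0.31 to 0.12 (median -0.17) and a mean of -0.13 ± 0.07, 0.911 of control (limma adjusted p = 0.0131). The call of Prdx3 or Prdx1 was lost without replicate 3 of every day (-0.10 and -0.13), and that of Prdx1 also without day 7 (-0.11). Prdx2, the abundant peroxiredoxin of red cells, was higher, with arrays from -0.16 to 0.56 (median 0.17) and a mean of 0.16 ± 0.13, 1.11 times control (limma adjusted p = 0.0175). Its call was lost without replicate 1 (0.12) or 2 (0.11) of every day, and without day 3 (0.15), 7 (0.13) or 14 (0.14). Beside it, 2 of the 3 erythroid markers measured were higher over hypoxia, where 24.7% of all features were. The 2 were Hbb-b1 at 0.99 ± 0.46 and Alas2 at 0.63 ± 0.30, while Slc4a1 was at 0.04 ± 0.10 and did not pass. Their part in the Prdx2 value was not tested. Prdx4, which works in the endoplasmic reticulum, had means of -0.04 ± 0.05 over hypoxia and 0.14 ± 0.03 over recovery, and neither passed.

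Of the 10 thioredoxin genes, 2 were higher over hypoxia, 2 were lower and none passed over recovery by limma. Of all features 24.7% were higher and 17.7% lower over hypoxia, and 4.77% passed over recovery. Txnip, which binds and holds back thioredoxin and responds to glucose, was among the lowest of all members. Txnip ran from -1.04 to 0.31 over the 20 hypoxia arrays (median -0.54), with a mean of -0.51 ± 0.33 (n = 5 days), 0.702 of control (SE 0.108, limma adjusted p = 0.00317). Txnip read -0.71, -0.62, -0.96 and -1.04 on day 1, -0.50, -0.03, -1.02 and -0.62 on day 3, and -0.59, -0.77, -0.85 and -0.99 on day 7. These were its lowest hypoxia days, with means of -0.83, -0.54 and -0.80. Txnip then stood at -0.16, -0.46, -0.32 and -0.34 on day 14, -0.11, 0.31, 0.01 and -0.44 on day 21, and -0.20, -0.17, -0.60 and -0.64 on day 22. By day 21 the arrays lay on both sides of 0 and their mean was -0.06. Later in recovery Txnip read -0.43, -0.62, -0.43 and -0.52 on day 24, -0.84, -0.31, -0.31 and -0.71 on day 28, and -0.09, 0.20, 0.07 and -0.03 on day 35. Txnip passed at days 24 (-0.50 ± 0.09) and 28 (-0.54 ± 0.27), and without replicate 1 day 28 was at -0.44 and still passed. Without 1 of the 4 replicates day 24 lay between -0.52 and -0.46 and did not pass. The recovery mean of Txnip, -0.35 ± 0.27, did not pass (limma adjusted p = 0.0898).

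Txnrd1, the cytosolic reductase that keeps thioredoxin reduced, was higher over hypoxia, above 0 on 18 of 20 arrays (from -0.17 to 0.51, median 0.16), with a mean of 0.16 ± 0.12, 1.12 times control (limma adjusted p = 0.0195). Its call was lost without replicate 4 of every day (0.14) and without day 1 (0.12) or 7 (0.16). At day 1 its 4 arrays were at 0.21, 0.17, 0.43 and 0.51. Txndc17, a thioredoxin-like cytosolic reductase, was higher at 0.17 ± 0.07 (limma adjusted p = 0.00806), with arrays from -0.18 to 0.41. That value came from replicates 1 and 2, at 0.33, against -0.00 in replicates 3 and 4, and the call was lost without replicate 1 (0.11) or 2 (0.11) of every day. Txndc12, a thioredoxin-like protein of the endoplasmic reticulum, was lower at -0.15 ± 0.12 (limma adjusted p = 0.0235) and passed at day 1 (-0.34 ± 0.17). The phase call of Txndc12 was lost without replicate 3 (-0.11) or 4 (-0.10) of every day and without day 1 (-0.10) or 14 (-0.14). Thioredoxin itself did not pass over hypoxia: the cytosolic Txn1 was at 0.02 ± 0.06 and the mitochondrial Txn2 at 0.15 ± 0.17 (limma adjusted p = 0.0567). Replicates 1 and 2 of Txn2 gave 0.42, which passed, and replicates 3 and 4 gave -0.09. The remaining 4 genes of the family, Txndc16, Txnl4a, Txnl1 and Txndc2, had hypoxia means from -0.04 to 0.10 and did not pass. For Txndc2 replicates 1 and 2 gave -0.22 and replicates 3 and 4 gave 0.43, which passed.

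**Figure D2:**
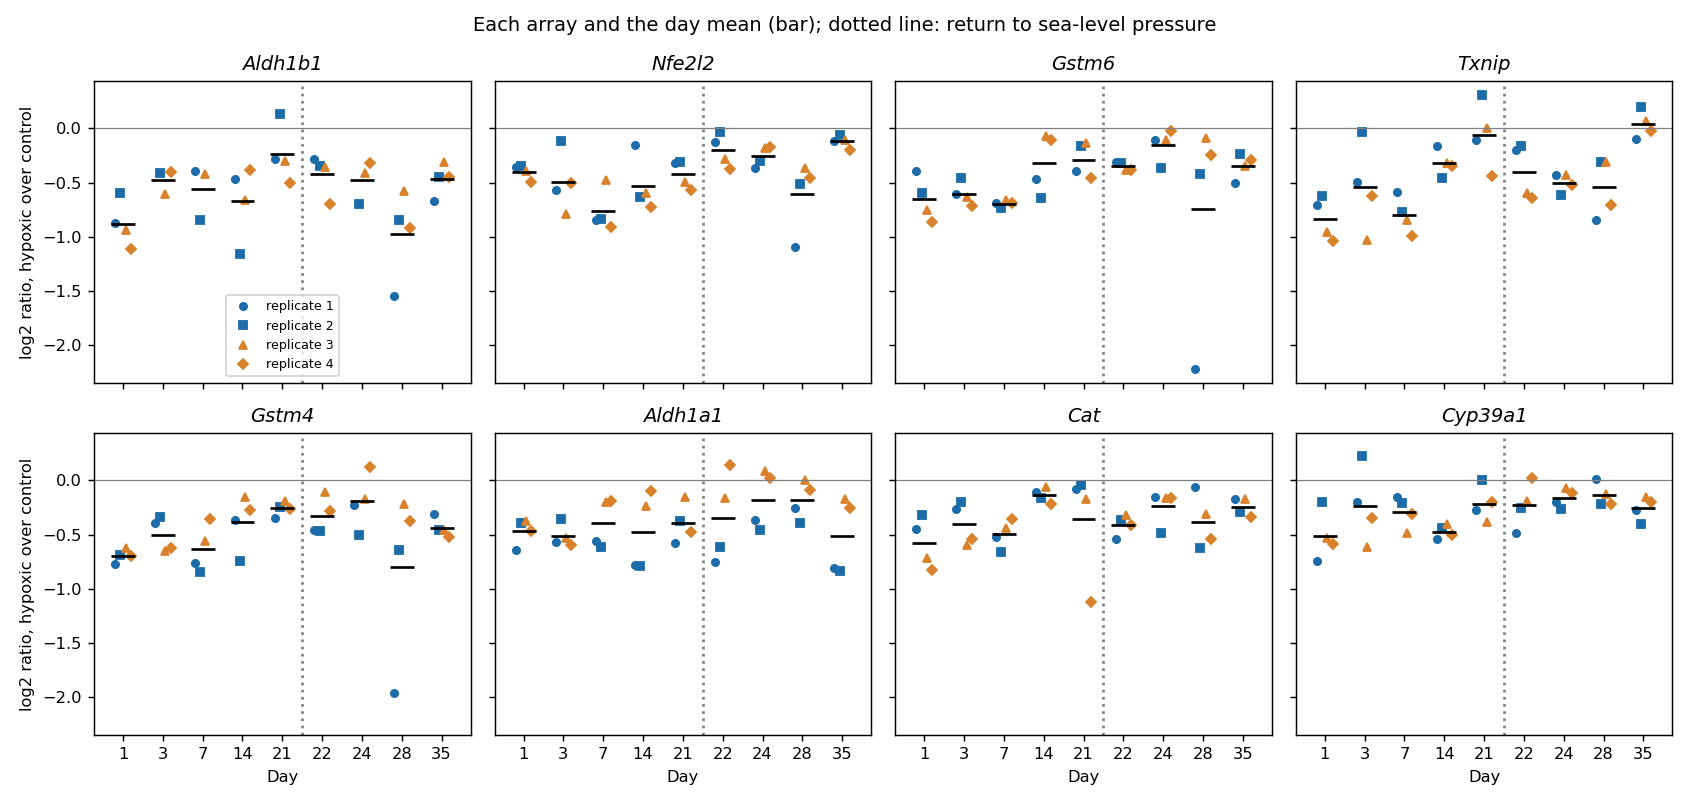
Log2 ratio on each array (points; replicates 1 and 2 in blue, 3 and 4 in orange) and the day mean (bar) for the 8 members whose hypoxia means lay farthest from 0 among those that passed with a single sign at all 5 hypoxia days; all 8 were lower. Nfe2l2 and Cat lie below 0 on every array, and replicate 1 of day 28 reached -2.22 for Gstm6.

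Gclc, the catalytic subunit of the enzyme that starts glutathione synthesis, had a hypoxia mean of -0.14 ± 0.16 that did not pass (limma adjusted p = 0.0815). It was lower on 4 single days. At day 3 its arrays were at -0.27, -0.25, -0.29 and -0.40 (limma adjusted p = 9.16e-05), and at day 21 at -0.22, -0.23, -0.28 and -0.19 (limma adjusted p = 0.00692). At day 7 its mean was -0.20 ± 0.11 and at day 28 -0.15 ± 0.16 (-0.22 without replicate 1, which also passed), whereas at day 1 it was 0.08. The day 21 call was lost without replicate 1 (-0.23), 3 (-0.21) or 4 (-0.24). The day 7 call was lost without replicate 3 of every day, and the day 28 call without replicate 2, 3 or 4. The recovery mean of Gclc was 0.04 ± 0.12.

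Among the 10 glutathione S-transferases, 4 were lower over hypoxia and the same 4 over recovery, and all were of the Mu class. Of all features 17.7% were lower over hypoxia and 3.12% over recovery. Gstm4, Gstm6, Gstm1 and Gstm2 conjugate glutathione to electrophiles, and they lie in a run of 7 consecutive Gstm genes on chromosome 3, of which 6 were measured. The 6 had a median of -0.26 over hypoxia and -0.26 over recovery. The other 4, Gsta4, Gstp1, Gsto1 and Gstcd, had medians of 0.08 and 0.02, and none passed over either phase by limma. Close relatives in this class share much of their sequence, so a spotted cDNA may take up RNA of a neighbour, and the Gstm values cannot be told apart with certainty.

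Gstm4 was below 0 on all 20 hypoxia arrays, from -0.85 to -0.15 (median -0.48), with a mean of -0.49 ± 0.18 (n = 5 days), 0.71 of control (SE 0.0807, limma adjusted p = 0.000889). Gstm4 read -0.77, -0.68, -0.63 and -0.70 on day 1, -0.39, -0.33, -0.65 and -0.63 on day 3, and -0.76, -0.85, -0.56 and -0.36 on day 7. These 3 days passed. Gstm4 then stood at -0.36, -0.74, -0.15 and -0.27 on day 14, -0.34, -0.24, -0.19 and -0.26 on day 21, and -0.46, -0.47, -0.10 and -0.28 on day 22. Later in recovery Gstm4 read -0.22, -0.50, -0.17 and 0.12 on day 24, -1.96, -0.64, -0.22 and -0.38 on day 28, and -0.31, -0.46, -0.46 and -0.52 on day 35. Over recovery its mean was -0.44 ± 0.26 (n = 4 days), 0.737 of control (limma adjusted p = 0.0375). The recovery mean of Gstm4 was -0.63 in replicates 1 and 2 and -0.25 in replicates 3 and 4, which did not pass. Day 28 had a mean of -0.80 with all 4 arrays and -0.41 without replicate 1, and passed both ways. The day 3 call of Gstm4 was lost without replicate 3 or 4 of every day.

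Gstm6 was below 0 on all 36 arrays. Over hypoxia it ran from -0.86 to -0.07 (median -0.60), with a mean of -0.51 ± 0.19 (n = 5 days), 0.702 of control (SE 0.0809, limma adjusted p = 0.00075). Gstm6 read -0.39, -0.59, -0.75 and -0.86 on day 1, -0.61, -0.46, -0.64 and -0.72 on day 3, and -0.69, -0.74, -0.66 and -0.69 on day 7. The 4 arrays of day 7 lay within a narrow range, with an SD of 0.03. Gstm6 then stood at -0.47, -0.64, -0.07 and -0.10 on day 14, -0.40, -0.16, -0.13 and -0.46 on day 21, and -0.31, -0.32, -0.38 and -0.38 on day 22. Later in recovery Gstm6 read -0.10, -0.36, -0.11 and -0.02 on day 24, -2.22, -0.42, -0.09 and -0.24 on day 28, and -0.50, -0.24, -0.35 and -0.29 on day 35. Its recovery mean was -0.40 ± 0.25 (limma adjusted p = 0.0402), with day 28 at -0.74, or -0.25 without replicate 1, which did not pass. Over recovery replicates 1 and 2 of Gstm6 gave -0.56 and replicates 3 and 4 gave -0.23, which did not pass.

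Gstm1 was below 0 on 17 of 20 hypoxia arrays, from -0.69 to 0.20 (median -0.35), with a mean of -0.31 ± 0.16, 0.804 of control (limma adjusted p = 0.00285). Its 2 spots gave the same hypoxia mean, -0.31. It was lowest at day 1, at -0.57, -0.49, -0.49 and -0.59, and stood at -0.11 by day 14. After 14 days at sea level, at day 35, it was at -0.50, -0.56, -0.44 and -0.44 (mean -0.48 ± 0.06, limma adjusted p = 0.00231), and its recovery mean was -0.29 ± 0.17 (limma adjusted p = 0.0453). Gstm2 was below 0 on all 20 hypoxia arrays, from -0.44 to -0.00, with a mean of -0.21 ± 0.09, 0.862 of control (limma adjusted p = 0.00415), and a recovery mean of -0.22 ± 0.12 (limma adjusted p = 0.0451). Over recovery replicates 1 and 2 gave -0.38 for Gstm1 and -0.33 for Gstm2, and replicates 3 and 4 gave -0.21 and -0.11, which did not pass. At day 28 both lost their call without replicate 1, at -0.10 for Gstm1 and -0.14 for Gstm2.

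The other Mu class genes measured did not pass over either phase. Gstm5 had a mean of -0.16 ± 0.19 over hypoxia (limma adjusted p = 0.0755) and -0.23 ± 0.17 over recovery, and was lower at day 1 at -0.53, -0.58, -0.35 and -0.36. Gstm7, which lies between Gstm5 and Gstm6, had a hypoxia mean of 0.11 ± 0.12. Over the 9 day means, Gstm1, Gstm2, Gstm4 and Gstm6 correlated with Pearson r from 0.53 to 0.95 (median 0.69, 6 pairs). The highest was between Gstm4 and Gstm6. Gstm5, which passed over neither phase, had r of 0.72 with Gstm1, 0.88 with Gstm2, 0.82 with Gstm4 and 0.66 with Gstm6. For Gstm7, which did not pass either, the values were 0.84, 0.71, 0.33 and 0.24 in the same order. Correlation over days was thus not confined to the genes that passed. These values are a description over days, for genes measured on the same arrays.

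**Figure D3:**
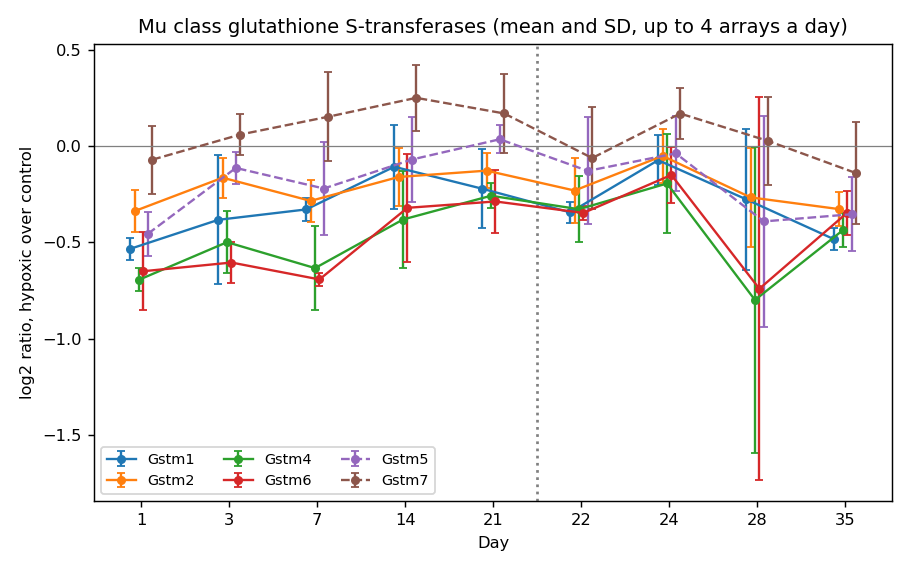
Mean log2 ratio by day (points and lines) with the SD over up to 4 arrays (bars) for 6 Mu class glutathione S-transferases; solid lines passed over both phases and dashed lines passed over neither. The solid lines stay below 0 at all 9 days, from -0.80 for Gstm4 at day 28 to -0.05 for Gstm2 at day 24, and the wide bars at day 28 come with replicate 1.

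Of the other classes, Gsta4, which conjugates products of lipid peroxidation, had a hypoxia mean of -0.16 ± 0.14 (limma adjusted p = 0.0792) and was lower at days 1 (-0.28 ± 0.21) and 14 (-0.27 ± 0.20). Its hypoxia mean was 0.01 in replicates 1 and 2 and -0.32 in replicates 3 and 4, which passed. Gstp1, the Pi class enzyme, averaged 0.07 ± 0.13, but stood at 0.33 in replicates 1 and 2 and at -0.20 in replicates 3 and 4, each past the threshold. Gsto1, of the Omega class, was higher at day 3, at 0.47, 0.52, 0.34 and 0.16. At day 28 Gsto1 was at 0.28 ± 0.15, which did not pass without replicate 1 (0.22). Gstcd was higher at day 1, at 0.24, 0.15, 0.28 and 0.43, and at day 28 at 0.26, which did not pass without replicate 1 (0.16).

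Of 7 cytochromes P450, 4 entered the phase fit and 2 of these, both hydroxylases of oxysterols, were lower over hypoxia. The share of all features lower was 17.7%. Cyp39a1 ran from -0.74 to 0.22 over the hypoxia arrays (median -0.36), with a mean of -0.34 ± 0.14 (n = 5 days), 0.787 of control (SE 0.05, limma adjusted p = 0.00047). Cyp39a1 read -0.74, -0.20, -0.53 and -0.58 on day 1, -0.20, 0.22, -0.61 and -0.34 on day 3, and -0.15, -0.21, -0.49 and -0.31 on day 7. Day 3 was the most scattered, with replicate 2 above 0, and did not pass. Cyp39a1 then stood at -0.54, -0.44, -0.40 and -0.51 on day 14, -0.27, 0.00, -0.38 and -0.20 on day 21, and -0.48, -0.25, -0.19 and 0.02 on day 22. Later in recovery Cyp39a1 read -0.20, -0.26, -0.07 and -0.12 on day 24, 0.01, -0.22, -0.13 and -0.22 on day 28, and -0.27, -0.41, -0.16 and -0.20 on day 35. Its recovery mean of -0.20 ± 0.06 did not pass (limma adjusted p = 0.0597). Cyp7b1 was at -0.12 ± 0.07 (limma adjusted p = 0.0352), with arrays from -0.52 to 0.22, and passed on no single day. Its call was lost without replicate 2 (-0.10) or 3 (-0.11) of every day, and without day 1, 7, 14 or 21 (-0.12 to -0.10).

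Cyp2s1, an enzyme of the airway and other epithelia, did not pass over hypoxia (0.16 ± 0.28). It was at -0.21 at day 1, higher at day 7 (0.45, 0.52, 0.42 and 0.46) and day 14 (0.44, 0.26, 0.45 and 0.38), and at -0.03 at day 21. Cyp11a1, which starts steroid synthesis, was at -0.04 ± 0.08. Cyp1b1 had a value on 1 array only, Cyp2c23 on 20 and Cyp17a1 on 33, and these 3 were the members that did not enter the phase fit. Ephx1, the microsomal epoxide hydrolase, was lower over hypoxia at -0.20 ± 0.17 (limma adjusted p = 0.0215), with arrays from -0.69 to 0.46. It passed only at day 1, at -0.46, -0.34, -0.50 and -0.69. The phase call of Ephx1 was lost without replicate 3 (-0.14) or 4 (-0.11) of every day and without day 1 (-0.13) or 3 (-0.20), and replicates 1 and 2 alone gave 0.02.

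The aldehyde dehydrogenases divided into 3 lower, 3 higher and 2 that did not pass over hypoxia. Of all features 17.7% were lower and 24.7% higher. Aldh1b1, a mitochondrial enzyme of acetaldehyde oxidation, had the hypoxia mean and the recovery mean farthest below 0 of the 50 members, in the direction taken here. It ran from -1.16 to 0.13 over 18 hypoxia arrays (median -0.48), with a mean of -0.56 ± 0.24 (n = 5 days), 0.677 of control (SE 0.0898, limma adjusted p = 0.000777). Over recovery it was below 0 on all 15 arrays with a value, from -1.54 to -0.29 (median -0.45), with a mean of -0.59 ± 0.26 (n = 4 days), 0.666 of control (limma adjusted p = 0.0323). Aldh1b1 read -0.87, -0.59, -0.94 and -1.11 on day 1, -0.41, -0.61 and -0.40 on day 3, and -0.40, -0.84 and -0.42 on day 7. Replicate 1 of day 3 and replicate 4 of day 7 had no value. Aldh1b1 then stood at -0.46, -1.16, -0.66 and -0.38 on day 14, -0.29, 0.13, -0.30 and -0.50 on day 21, and -0.29, -0.35, -0.36 and -0.69 on day 22. Later in recovery Aldh1b1 read -0.70, -0.41 and -0.32 on day 24, -1.54, -0.85, -0.58 and -0.92 on day 28, and -0.67, -0.45, -0.31 and -0.45 on day 35. Replicate 1 of day 24 had none. Aldh1b1 passed at days 1, 3, 7, 14, 28 and 35, and day 28 was at -0.97, or -0.78 without replicate 1, which also passed. The day 3 call of Aldh1b1 was lost without replicate 3 or 4 of every day, and its day 35 call without any 1 of the 4.

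Aldh1a1, which makes retinoic acid from retinaldehyde, had the lowest adjusted p of the members over hypoxia. It was below 0 on all 20 arrays, from -0.79 to -0.09 (median -0.47), with a mean of -0.45 ± 0.05 (n = 5 days), 0.733 of control (SE 0.0503, limma adjusted p = 0.000155). Aldh1a1 read -0.64, -0.39, -0.37 and -0.47 on day 1, -0.56, -0.36, -0.53 and -0.59 on day 3, and -0.55, -0.61, -0.20 and -0.19 on day 7. These 3 days passed, and so did days 14 and 35. Aldh1a1 then stood at -0.78, -0.79, -0.24 and -0.09 on day 14, -0.58, -0.37, -0.15 and -0.47 on day 21, and -0.76, -0.62, -0.16 and 0.15 on day 22. Later in recovery Aldh1a1 read -0.36, -0.46, 0.08 and 0.03 on day 24, -0.26, -0.39, 0.00 and -0.09 on day 28, and -0.81, -0.83, -0.17 and -0.25 on day 35. Over recovery its mean was -0.31 ± 0.16 (n = 4 days), 0.809 of control (limma adjusted p = 0.0323). The day 35 call (-0.52) was lost without replicate 1 (-0.42) or 2 (-0.41). The day 1 call was lost without replicate 1 of every day, and those of days 7 and 14 without replicate 1 or 2. The recovery value came from replicates 1 and 2, at -0.56, against -0.05 in replicates 3 and 4. Aldh3a2, the fatty aldehyde dehydrogenase, was at -0.24 ± 0.13 over hypoxia (limma adjusted p = 0.00375) and -0.24 ± 0.11 over recovery (limma adjusted p = 0.0449), and below 0 on 18 of 19 and 15 of 16 arrays. Its recovery mean was -0.35 in replicates 1 and 2 and -0.12 in replicates 3 and 4, which did not pass.

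Aldh7a1, an enzyme of lysine breakdown, had the highest hypoxia mean of the members. Its 18 hypoxia arrays ran from -0.12 to 0.62 (median 0.34), with a mean of 0.32 ± 0.18 (n = 5 days), 1.24 times control (limma adjusted p = 0.00342). At day 14 the 3 arrays with a value were at 0.62, 0.52 and 0.56, and at day 3 the 3 arrays were at 0.38, 0.33 and 0.43. At day 28 it was at 0.29, which did not pass without replicate 1 (0.20). Aldh16a1 was above 0 on 18 of 20 hypoxia arrays, with a mean of 0.23 ± 0.12 (limma adjusted p = 0.00376). At day 14 its replicate 2 stood at 1.03 beside 0.04, 0.12 and 0.23. Aldh9a1, an enzyme of carnitine synthesis, was above 0 on 17 of 20 arrays, with a mean of 0.18 ± 0.05 (limma adjusted p = 0.00792). Aldh2, the main mitochondrial acetaldehyde dehydrogenase, was at 0.05 ± 0.13 and Aldh3b1 at 0.03 ± 0.18, and neither passed.

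Of the 5 aldo-keto reductases, Akr1a1 was higher and Akr1c19 lower over hypoxia. Akr1a1, an aldehyde reductase that in mice serves ascorbate synthesis, was above 0 on 17 of 20 arrays, from -0.11 to 0.69 (median 0.16), with a mean of 0.19 ± 0.10, 1.14 times control (limma adjusted p = 0.00423). Its 3 spots were at 0.15, 0.17 and 0.21. Replicates 1 and 2 of Akr1a1 gave 0.33 and replicates 3 and 4 gave 0.06, which did not pass. Akr1c19 was at -0.17 ± 0.09 (limma adjusted p = 0.00724), with arrays from -0.90 to 0.15. Akr1c14, a hydroxysteroid dehydrogenase, was lower at day 14, at -0.96, -0.46, -0.75 and -0.25 (limma adjusted p = 5.7e-05), with a hypoxia mean of -0.19 ± 0.26 that did not pass. Its 2 spots differed, at 0.04 and -0.39 over hypoxia. The near-identical Akr1c genes may share signal on a spotted cDNA. Akr1b10 (-0.01 ± 0.11) and Akr1cl (0.06 ± 0.10) did not pass.

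**Figure D4:**
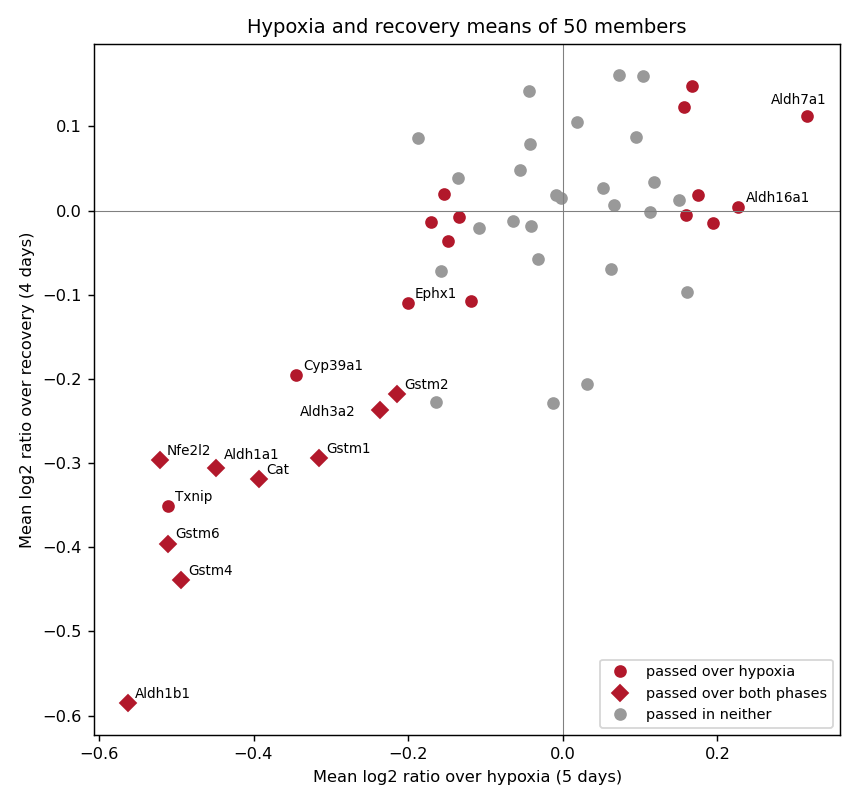
Mean log2 ratio over hypoxia (5 days, x axis) and over recovery (4 days, y axis) for the 50 members, with colour and shape for the phases in which limma's adjusted p was under 0.05. The 9 members that passed over both phases lie at the lower left, down to -0.56 and -0.59 for Aldh1b1, and the 7 higher over hypoxia lie between -0.01 and 0.15 over recovery.

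The return to sea level was addressed by the difference between the phases, tested in the same fit. By limma 0 of 50 members differed, against 0.0329% of all features, with 10 at an unadjusted p under 0.05. The lowest adjusted p was 0.152, for Prdx4, at -0.18 ± 0.05 (SE) for hypoxia minus recovery. The next lowest were Akr1a1 (0.21), Aldh16a1 (0.22), Prdx3 (-0.17) and Akr1c19 (-0.16), none of which passed. Fitted instead on the 36 arrays with the day as a random block, 1 of 50 members differed, Akr1a1, 2% against 6.58% of all features. A p that misses the threshold does not show that the phases were alike. All 9 members lower over recovery (Aldh1b1, Gstm4, Gstm6, Cat, Aldh1a1, Nfe2l2, Gstm1, Aldh3a2 and Gstm2) were also lower over hypoxia. Their recovery adjusted p lay between 0.0323 and 0.0492, and 0 of 50 members passed over recovery by limma when day 3, 22, 24 or 28 was left out of the fit. Without replicate 1 of day 28, 8 passed over recovery, 7 of these 9 and Cyp39a1 (-0.21), while Gstm1 (-0.25) and Gstm2 (-0.19) did not. The recovery mean was then -0.34 for Gstm4, -0.27 for Gstm6 and -0.26 for Nfe2l2. Of the 9, the call of Aldh3a2 was lost without replicate 1 (-0.19), 2 (-0.21) or 4 (-0.23) of every day, that of Gstm1 without replicate 1 (-0.25) or 2 (-0.29), and that of Gstm2 without replicate 1 (-0.17) or 2 (-0.19). The call of Gstm6 was lost without replicate 1 (-0.27), that of Aldh1a1 without replicate 2 (-0.22), and that of Nfe2l2 without replicate 3 (-0.32) or 4 (-0.29).

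**Figure D5:**
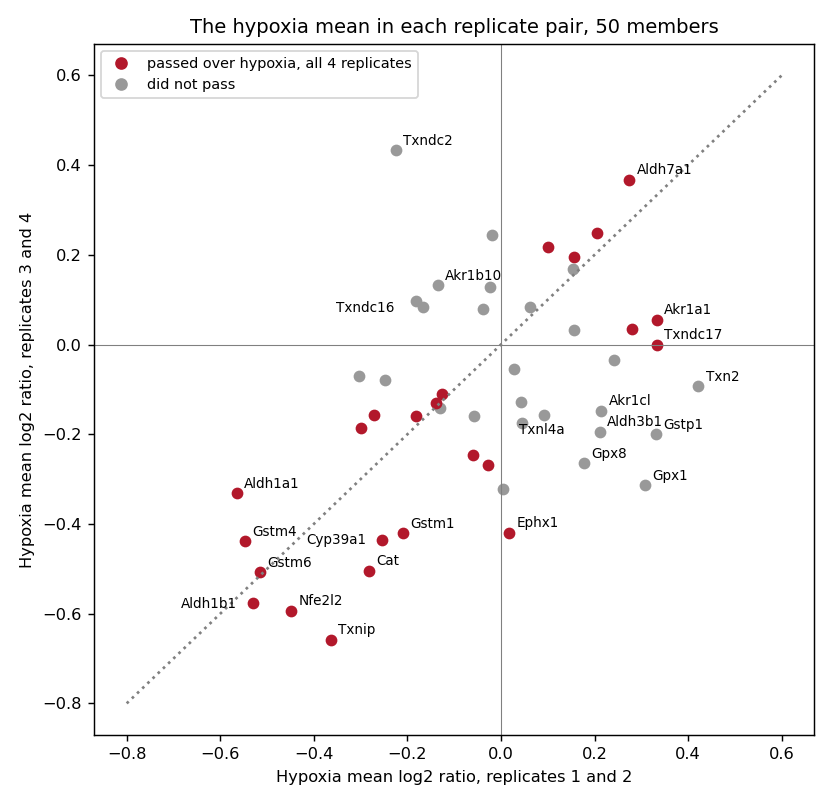
Hypoxia mean log2 ratio from replicates 1 and 2 of each day (x axis) and from replicates 3 and 4 (y axis) for the 50 members; red points passed with all 4 replicates and the dotted line marks equal values. Nfe2l2, Cat, Txnip, Gstm4, Gstm6 and Aldh1b1 lie at the lower left in both, and Gpx1 (0.31 and -0.31) and Gstp1 (0.33 and -0.20) have opposite signs.

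The replicate pairs bear on all of these values. Of the 24 members that passed over hypoxia, 22 had the same sign in both pairs, the exceptions being Ephx1 and Txndc17. Of the 24, 11 passed in each pair alone, 3 in replicates 1 and 2 alone, 9 in replicates 3 and 4 alone, and Cyp7b1 in neither. Over all 50 members 29 had the same sign, 58% against 56.8% of all features, and 2, Gpx1 and Gstp1, passed in opposite directions, 4% against 6.92%. Of the 9 that passed over recovery all had the same sign in both pairs, and 2, Cat and Aldh1b1, passed in each, while 6 passed in replicates 1 and 2 alone and 1, Nfe2l2, in replicates 3 and 4 alone.

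Other genes of redox and drug metabolism were taken from a list of 61, of which 29 were fitted. Over hypoxia 4 of the 29 were higher, 13.8% against 24.7% of all features, and 11 lower, 37.9% against 17.7%. Over recovery 1 was higher (Msrb3), 3.45% against 1.65%, and 0 lower by limma, against 3.12%, with 8 lower at an unadjusted p under 0.05. Among the regulators, Bach1, the repressor that competes with NRF2 at antioxidant response elements, was lower at -0.57 ± 0.22, and Arnt, the partner of the aryl hydrocarbon receptor, at -0.20 ± 0.12. Hmox1, the heme oxygenase that NRF2 and BACH1 control, was at 0.08 ± 0.19 and did not pass. Pon3, a lactonase, was lower at -0.51 ± 0.16. Msrb1, a methionine sulfoxide reductase, and Idh1, a cytosolic source of NADPH, were both lower at -0.31. Glrx5, a mitochondrial glutaredoxin of iron-sulphur assembly, was higher at 0.41 ± 0.18, Idh2, the mitochondrial isocitrate dehydrogenase, at 0.30 ± 0.13, Selenow at 0.23 ± 0.12 and Msrb3 at 0.15 ± 0.07.

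Markers of lung cell types moved over the same days. Of 77 markers of 12 cell types 26 were fitted. The shares of all features were 24.7% higher and 17.7% lower over hypoxia, and 1.65% higher and 3.12% lower over recovery. Of the macrophage markers 3 of 4 were lower over hypoxia (Cybb -0.62, Fcgr3 -0.33, Fcgr1 -0.27) and Lyz2 was at -0.05. The club cell marker Cbr2 was at -0.17 ± 0.22 and did not pass, and the ciliated cell marker Dnah5 was lower at -0.16 ± 0.07. Of the 5 alveolar type II markers 2 were higher (Muc1 0.37, Lpcat1 0.29) and 1 lower (Slc34a2 -0.60). Both endothelial markers were higher (Emcn 0.66, Cdh5 0.27), and of the 5 fibroblast markers 3 collagens were higher (0.57 to 0.71) and Dcn (-0.84) and Pdgfra (-0.22) lower. The neutrophil markers went apart, S100a9 lower at -1.51 ± 1.45 and Ltf higher at 0.68 ± 0.69. The alveolar type I marker Cav1 (-0.10 ± 0.09) and the lymphocyte marker Ighm (0.08 ± 0.44) did not pass. Over recovery Emcn was higher (0.55), and Cybb (-0.33) and Cnn1 (-0.32), a smooth muscle marker, were lower, and S100a9, at -1.67 ± 1.70, did not pass. The part of these cell types in the members' values was not tested.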

How the data were processed

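RNA from pools of whole lungs of 5 hypoxic and 5 control mice was hybridised to spotted 2-colour cDNA arrays, with 9 time points and 4 arrays for each. Per the labels, cDNA was made with Superscript II, slides were read with GenePix Pro 4.0, and the authors corrected for background, dropped flagged spots and applied lowess to the log2 ratios before they were deposited. These values were used as they stand, with empty spots left empty. Channel intensities were not used here, and the genome build is not given in the sources used here.

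Gene names came from the platform annotation (9598 of 15388 with 1 symbol, 514 with several, 5276 with none). By Entrez identifier 9510 of these were found among the RefSeq genes of GRCm38.p6, with 0 symbols changed. Spots of a gene were averaged, giving 6971 genes, and other spots were kept apart, giving 12761 features. Promoter windows came from RefSeq on GRCm38.p6.

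Two-sided tests were run with lmFit and eBayes of limma 3.58.1 under R 4.3.3. The p-values were adjusted by Benjamini-Hochberg over every feature tested, with a threshold of 0.05. The phases were fitted on the 9 day means for 12159 features with at least 2 arrays at each day, and single days on the 36 arrays for features with at least 3 of 4. The fits were tested on simulated data with independent noise on each array. The likeness of arrays within a replicate pair was therefore not part of that check. Arrays carry no counts, so their number limits the precision.

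The members, gene lists and tests were chosen with earlier results of these data known. Named genes are members that passed over a phase with a single sign at all its days (up to 12 a direction for hypoxia, up to 8 for recovery), up to 5 for the difference, the lowest p of each family, up to 2 a direction for each day, and a set of well known enzymes. Other members are named to account for all 53, after their values were seen. The alternatives changed the centring, the common spread, the limit on missing values, the spots of a gene, the replicates or days used, a replicate block, and the unit of the fit. Leaving out replicate 1 of day 28 was chosen after seeing the data.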

Additional observations from a re-analysis of the deposited data

Results flagged for a closer look

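Some arrays or days stood apart from the others of their group by Dixon's test, which was applied to 69 groups of 4 arrays and to 72 phases of named members and by chance marks about 1 in 20 groups. Nfe2l2 at day 7 read -0.48 in replicate 3, against -0.91 to -0.83 in the other 3 arrays. Gstm6 at day 28 read -2.22 in replicate 1, the array with the widest spread of all, against -0.42 to -0.09 in the others. Cat at day 21 read -1.12 in replicate 4, against -0.18 to -0.04, and at day 24 it read -0.48 in replicate 2, against -0.16 in the others.

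Among day means of recovery, Aldh1b1 stood at -0.97 at day 28, against -0.48 to -0.42 on the other days. Gclc stood at -0.15 at day 28, against 0.09 to 0.11. Prdx2 stood at 0.080 at day 24, against 0.13 to 0.14. The cause of these values was not tested.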

How the results depend on the processing

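Over hypoxia the count of 24 members lay between 19 (of 36 members with values on all 36 arrays) and 30 in the 23 alternatives run, 40% to 60% of members against 32.8% to 52.1% of all features. The single-day total of 96 lay between 67 and 138 in 13, 14.5% to 29.9% against 11.5% to 22%, highest with the replicate block. Scaling arrays to a common spread turned the single-day split of 23 higher and 73 lower into 12 and 87, and the recovery split of 0 and 9 into 4 and 13, 17 in all, 34% of members against 26% of all features. Replicates 1 and 2 alone gave a single-day split of 41 and 59. The recovery count was 15 with the day as a random block on 36 arrays and 15 with the replicate block, 30% of members against 20.4% and 20.9% of all features, 5 to 10 without 1 replicate of every day, and 0 to 9 without 1 day, the 0 coming without day 3, 22, 24 or 28, where 13, 12, 0 and 2 of all features passed. The difference between phases was passed by 2 members with the replicate block (Akr1a1 and Prdx4), 4% against 6.71% of all features, and by 1 with the random block (Akr1a1), 2% against 6.58%. The labels do not say what a replicate number shares, and numbers were not taken as pairs because not every correlation passed 0.1. That rule does not show that the arrays were independent. Arrays of 1 number on different days had a median correlation of deviations of 0.38, over 0.1 in 126 of 144 pairs. Of the 36 arrays 15 correlated best with their own number. All 36 correlated best with their own pair of replicates, with a median of 0.40 within a pair of numbers (1 and 2, or 3 and 4) and -0.40 across pairs, on different days. The main fits took no account of these pairs.

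Over hypoxia 21 of 50 members had opposite signs in replicates 1 and 2 alone and in 3 and 4 alone. Among named members that passed in the full fit or in the pair, the sign turned in replicates 1 and 2 alone for Ephx1 (0.018) and Gpx1 (0.31), and in replicates 3 and 4 alone for Gstp1 (-0.20) and Txndc17 (-1e-04). The cause was not tested. Pools, ratios without channel signals and the number of arrays limit the values.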

Other observations

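Of the spots, 6 carried several symbols, with 1 or more from these families. They were kept as features of their own and were not counted as members. The spot of Gpx2 and its pseudogene Gpx2-ps1 had a mean log2 ratio of -0.42 ± 0.19 (SD, n = 5 days) over hypoxia and -0.13 ± 0.13 (n = 4 days) over recovery. The spot of Gpx4 and Exosc7 was at 0.14 ± 0.21 over hypoxia, beside -0.06 ± 0.16 for the spot of Gpx4 alone. The spot of Txndc5, a protein of the endoplasmic reticulum, and Bmp6 was at -0.04 ± 0.13 over hypoxia and -0.26 ± 0.17 over recovery. The spot of Cyp51, an enzyme of sterol synthesis, and Akap9 was at 0.02 ± 0.18 over hypoxia. Cyp1b1 had a value on 1 array, -0.44 at day 35.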
